A study of Bos taurus with 6 samples.

Results

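The immediate early genes described here are FOS, JUN, JUNB, ATF3, EGR1, KLF4, KLF10, DUSP1, SOCS3 and IER2, measured in longissimus thoracis, a large muscle along the back of cattle. They were chosen by symbol, as every array probe set whose annotation gives exactly 1 gene symbol equal to that of a listed gene. All 10 listed genes were found, of 9155 genes named in this way, with 20 of the 24016 tested probe sets. The muscle came from 6 Japanese Black steers, castrated males of a beef breed, which were 13 to 14 months old at the start. They were fattened for 7 months, to a stated age of 20 to 21 months, on feed meant to give a gain of 1.0 kg a day. In the supplemented diet, 3 steers received a weekly oral dose of vitamin A, 296.8 IU for each kg they weighed, and in the restricted diet 3 steers received no such dose. Each array held the RNA of 1 steer. The steers were 600, 612 and 618 days old in the supplemented group and 589, 595 and 611 days old in the restricted group, numbered 1 to 3 in each as their labels give them. Some of these ages in days fall short of the stated 20 months.

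Immediate early genes are switched on within minutes of a stimulus, without new protein synthesis, from promoters that are already poised. Growth factors, calcium, cytokines, contraction, injury and handling of tissue act on them through kinase cascades and factors such as SRF, CREB and STAT3. Most of their products are transcription factors that act on later genes, or inhibitors that shut the same cascades off, and their mRNAs are short-lived. In muscle they are known to respond to exercise and to biopsy.

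The values are deposited log2 values, whose normalization is not given in the sources used here. They differ very little between arrays, with a median range over the 6 arrays of 6.77e-07 per probe set, and for this reason a difference is not read as a fold change. Small values are given below in millionths of a deposited log2 unit, and differences between the diets also divided by that probe set's standard deviation within diets (SDs). The tissue label was checked against 7 measured genes of skeletal muscle fibres, whose 17 probe sets had a median level at percentile 99.6 of all tested and reached 12.67. Of these 17, 11 lay above the median level of all tested, and the lowest was at 4.868. Macrophage, lymphocyte and red blood cell markers had median levels at percentiles 35.3, 26.6 and 25.8. Fibroblast, adipocyte, and smooth muscle and pericyte markers were higher, at percentiles 90.4, 81.3 and 78.4, so the muscle also holds RNA of other cells. In whole muscle, fewer cells of a type and less RNA per cell cannot be told apart.

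FOS had the widest range over these 6 steers of any tested probe set, and several of the other immediate early genes followed a similar order of steers, which cut across the diets. The widest probe set of FOS ranged over 0.261 log2 units, rank 1 of 24016, and ATF3, EGR1 and KLF10 ranked 7, 18 and 29. Restricted steer 1 had the lowest value in 12 of the 20 probe sets, against 17.6% of all tested. The highest value was that of restricted steer 2 in 6 and of supplemented steers 1 and 2 in 5 each. Over all tested these shares were 15.1%, 16.3% and 18.5%. Both extremes were restricted steers in 6 of the 20, among them those of FOS and ATF3, and lay in different diets in 13. For the last 2 counts the share over all tested was not counted, so they are not read as particular to the members. None of the 20 probe sets passed the test between the diets.

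FOS encodes the transcription factor that pairs with JUN proteins to form AP-1. Its deposited log2 value at probe set Bt.2899.1.S2_at was 5.635, 5.653 and 5.509 in supplemented steers 1 to 3, and 5.437, 5.698 and 5.593 in restricted steers 1 to 3. The highest and the lowest steer were both restricted, and the 3 supplemented steers lay between them. Supplemented steers averaged 5.599 ± 0.0782 and restricted steers 5.576 ± 0.131 (mean ± SD, n = 3 each). Restricted minus supplemented was -0.0232 with a standard error (SE) of 0.0834, or -0.215 SDs (limma unadjusted p = 0.793). The diet accounted for 1.70% of the variation of this probe set over the 6 steers. Without restricted steer 1 the difference was 0.601 SDs, and without restricted steer 2 it was -0.937 SDs.

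The other FOS probe set, Bt.2899.1.S1_at, had a lower level and a much narrower range but the same order of steers. Its values were 5.1276, 5.1280 and 5.1247 in supplemented steers 1 to 3 and 5.1241, 5.1298 and 5.1267 in restricted steers 1 to 3. Restricted steer 2 was again highest, followed by supplemented steers 2 and 1, restricted steer 3, supplemented steer 3 and restricted steer 1. All 15 pairs of steers were thus ordered the same way by both probe sets. The ranges of the 2 probe sets differed 46.0-fold, 0.261 against 0.00567, although both are annotated to FOS. Ranks of range in this table thus describe probe sets, and probe sets of the same gene can differ widely in them. Restricted minus supplemented was 146 ± 1837 millionths (SE), or 0.0614 SDs, and turned below 0 with array weights and with age as a covariate.

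**Figure D1:**
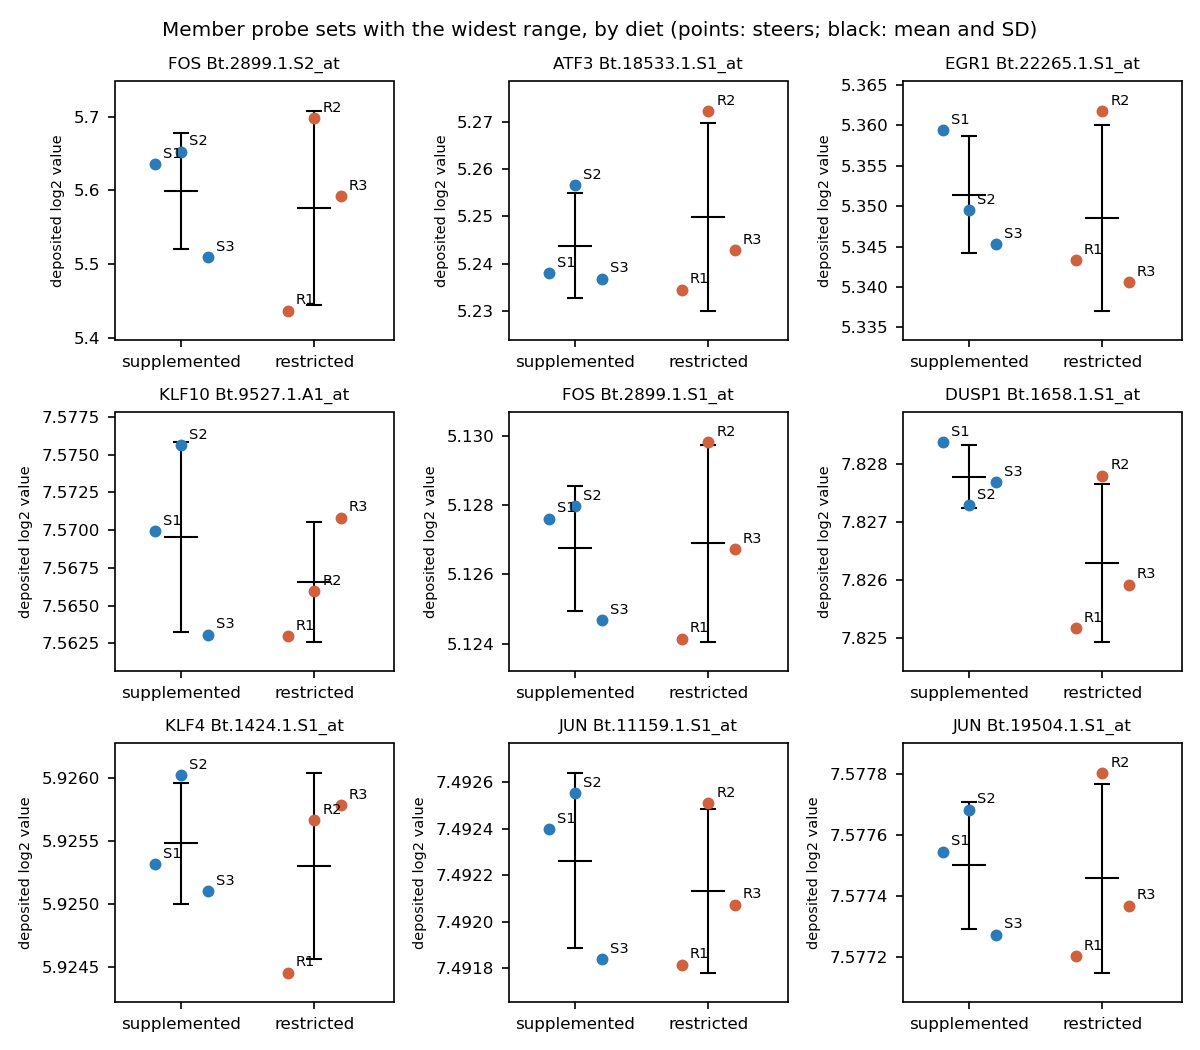
Deposited log2 value (vertical axis, a scale of its own in each panel) of the 9 member probe sets with the widest range, by diet. Points are single steers, S for supplemented and R for restricted with the steer's number, and black marks are the mean and SD of 3 steers; in both FOS panels R2 is highest and R1 lowest, and the diets overlap in all 9.

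The JUN proteins are the partners of FOS in AP-1, and JUN can also act as a homodimer. JUN has 5 probe sets, of which 2, with mean values of 7.577 and 7.492, followed FOS closely. At Bt.19504.1.S1_at supplemented steers 1 to 3 lay 66.5, 204 and -206 millionths from the mean of the 6 arrays, and restricted steers 1 to 3 lay -276, 323 and -111 millionths from it. This is the steer order of FOS in all 15 pairs. At Bt.11159.1.S1_at the distances were 200, 354 and -358 millionths in supplemented and -383, 312 and -125 millionths in restricted steers, with 14 of 15 pairs ordered as in FOS. Restricted minus supplemented was -42.7 ± 204 millionths (SE) in the former and -130 ± 280 millionths in the latter, and the diets overlapped in both.

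The remaining JUN probe sets departed further from FOS as their range narrowed. Bt.13134.1.S1_at, with a range of 184 millionths, had restricted steer 2 highest and 13 pairs ordered as in FOS. Bt.9153.1.S1_at, with a range of 46.9 millionths, had 11 such pairs. Its difference of -0.471 SDs became 0.816 SDs with quantile normalization, the value given when all arrays but 1 are tied. Bt.13134.1.A1_at had a level of 4.973, at percentile 19.2, a range of 0.958 millionths and 8 such pairs. In it no restricted steer reached the lowest supplemented steer, by -2.04 SDs (limma unadjusted p = 0.0527, adjusted p = 1), an order that no other JUN probe set showed.

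JUNB, a JUN relative that often restrains JUN activity, has 1 probe set. It lay 45.8, 41.0 and -22.4 millionths from its mean in supplemented steers 1 to 3 and -57.0, 17.1 and -24.5 millionths in restricted steers 1 to 3. Supplemented steers 1 and 2 were highest and restricted steer 1 lowest, and restricted steer 2 lay above supplemented steer 3. The difference between the diets was -42.9 ± 29.0 millionths (SE) or -1.14 SDs (limma unadjusted p = 0.205).

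ATF3 belongs to the same class of leucine zipper factors, dimerises with JUN proteins and is induced by cell stress. Its deposited log2 value was 5.238, 5.257 and 5.237 in supplemented steers 1 to 3 and 5.235, 5.272 and 5.243 in restricted steers 1 to 3. Restricted steer 2 stood highest and supplemented steer 2 second, and the other 4 steers lay within a narrow band below them. Restricted minus supplemented was 0.00604 ± 0.0124 (SE) or 0.377 SDs (limma unadjusted p = 0.648), and was -0.527 SDs without restricted steer 2. ATF3 shared 14 of 15 pairs with FOS.

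EGR1 is a zinc finger factor under SRF control and 1 of the best known immediate early genes. At Bt.22265.1.S1_at its value was 5.3594, 5.3495 and 5.3453 in supplemented steers 1 to 3 and 5.3434, 5.3617 and 5.3406 in restricted steers 1 to 3. Restricted steer 2 and supplemented steer 1 were high, and here restricted steer 3, not steer 1, was lowest. The difference was -0.00283 ± 0.00740 (SE) or -0.295 SDs, and 12 pairs were ordered as in FOS. The second EGR1 probe set, Bt.27980.1.S1_at, had a mean of 5.364 and ranged over 0.639 millionths, a range 33022-fold narrower. It shared only 6 pairs with FOS, and its difference of 0.0623 SDs turned to -0.772 SDs when array medians were made equal.

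KLF4 and KLF10 are zinc finger factors of the Krüppel-like family, KLF4 an inducible regulator of cell growth and KLF10 a gene first found as a target of TGF-beta. KLF10 at Bt.9527.1.A1_at had values of 7.5699, 7.5756 and 7.5631 in supplemented and 7.5630, 7.5660 and 7.5708 in restricted steers 1 to 3. Supplemented steer 2 was highest and restricted steer 1 lowest, with restricted steer 2 below restricted steer 3 and supplemented steer 1. The difference was -0.00295 ± 0.00405 (SE) or -0.562 SDs. Its other probe set, Bt.9527.2.S1_at, had restricted steer 3 highest and supplemented steer 3 lowest, a difference of -0.105 SDs and 9 pairs as in FOS, against 11 for the first.

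KLF4 lay -73.1, 629 and -288 millionths from its mean in supplemented and -935, 276 and 390 millionths in restricted steers 1 to 3. Restricted steer 1 was far below the other 5, and supplemented steer 2 was highest. The difference was -179 ± 479 millionths (SE) or -0.289 SDs, and 0.618 SDs without restricted steer 1. With age as a covariate it was 0.257 SDs.

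DUSP1 and SOCS3 encode feedback inhibitors. DUSP1 is a phosphatase that switches MAP kinases off, and SOCS3 blocks cytokine signalling through JAK and STAT3. DUSP1 lay 1335, 256 and 644 millionths above its mean in supplemented steers 1 to 3. In restricted steers 1 to 3 it lay at -1877, 763 and -1120 millionths. Restricted steers 1 and 3 were below all supplemented steers, while restricted steer 2 was above 2 of them. The difference of -1490 ± 799 millionths (SE), or -1.44 SDs (limma unadjusted p = 0.128, adjusted p = 1), was the largest in SDs among the 12 member probe sets of the widest 1000. The diet accounted for 43.7% of its variation. Without restricted steer 2 it was -4.13 SDs, and it remained below 0 without each steer in turn.

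SOCS3 lay near the bottom of the table. Its 2 probe sets had levels of 4.947 and 4.978, at percentiles 13.6 and 20.4 of all tested, and ranged over 0.262 and 0.204 millionths. At Bt.8137.1.S2_at supplemented steers 1 to 3 lay at 0.138, -0.00250 and 0.0215 millionths and restricted steers 1 to 3 at -0.0665, -0.0365 and -0.0535 millionths. The diets did not overlap there, with a difference of -1.93 SDs (limma unadjusted p = 0.0893), but Bt.8137.1.S1_at had 0.676 SDs with overlap, turning to -0.727 SDs when array medians were made equal. The whole range of either probe set was smaller than the 8.88 millionths over which the medians of the 6 arrays spread.

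IER2, a small nuclear protein of the immediate early response, was likewise flat. Its 3 probe sets ranged over 2.16, 0.723 and 0.0360 millionths, at levels of 5.376, 5.053 and 4.896. Their differences between the diets were -1.11, 1.14 and -0.633 SDs, with overlap in each. The second of them turned to -0.717 SDs when array medians were made equal. With quantile normalization it was -0.816 SDs, the value given when all arrays but 1 are tied. None of the 3 shared more than 9 pairs with FOS.

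**Figure D2:**
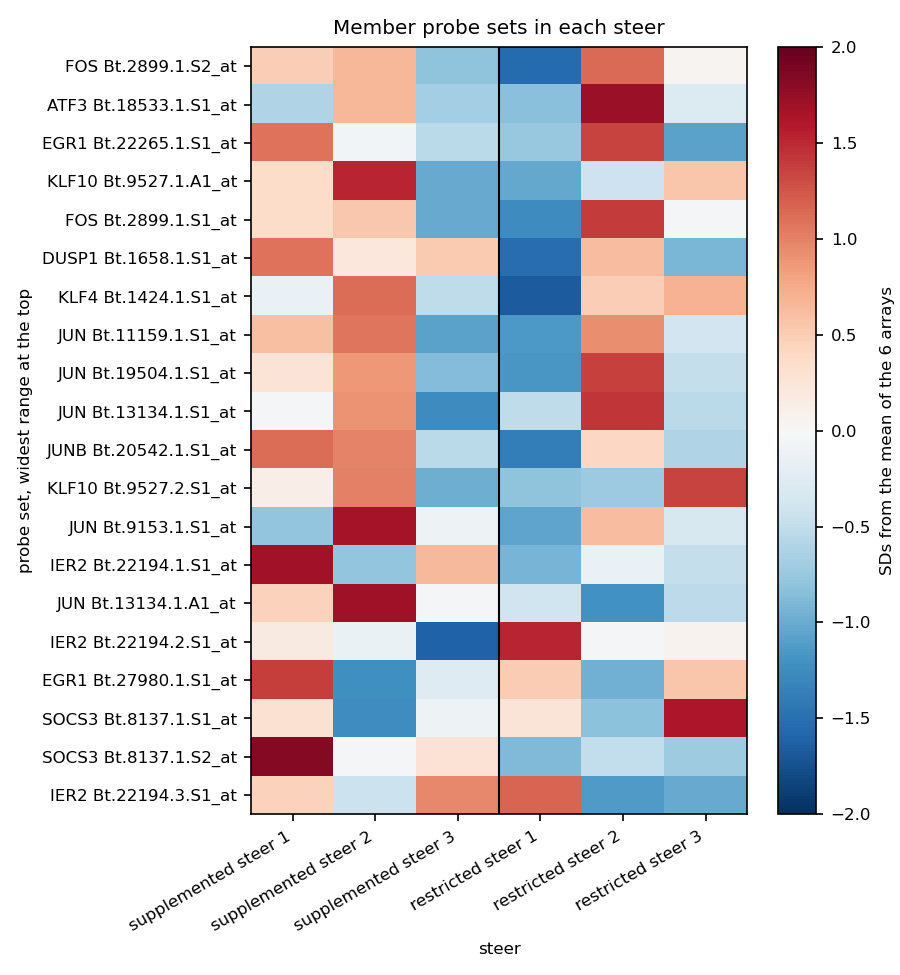
Each of the 20 member probe sets (rows, widest range at the top) in each of the 6 steers (columns), as SDs from that probe set's mean over the 6 arrays, red above and blue below. Restricted steer 1 is lowest in 9 of the 12 upper rows, and in 3 of the lower 8, whose ranges are 46.9 millionths or less.

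The common order can be counted over the members. Of 20 probe sets, 8 had at least 12 of 15 pairs of steers ordered as in the widest FOS probe set, itself included, against 7.52% of all tested. These 8 were the 2 of FOS, 3 of JUN, and those of ATF3, KLF4 and the wider of EGR1. All belonged to the 1000 probe sets with the widest range, among which 8.10% had at least 12 pairs. The lowest value was that of restricted steer 1 in 12 of 20, against 17.6% of all tested, and in 9 of the 12 members of the widest 1000, against 14.3% of that 1000. These shares are a description of 6 arrays and no test. The reference probe set has all 15 pairs by definition, and probe sets of the same gene are not independent of each other. The members were also chosen with earlier results of these data known. When array medians were made equal the 12 members of the widest 1000 had 10 with restricted steer 1 lowest and 8 with at least 12 pairs. Over all tested, however, that scaling itself made restricted steer 1 lowest in 86.9%, beside 18 of the 20 members, and quantile normalization left 13 of the 20 without a single lowest steer.

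Most of the wider members also had wide ranges for their level. Ranges rise with level in this table, from a median of 0.246 millionths in the lowest of 10 equal bins of probe sets by level to 18.4 millionths in the highest. FOS at Bt.2899.1.S2_at had the widest range in its bin, and in the bins of ATF3 and of the other FOS probe set 0.0416% of probe sets were wider. For EGR1 it was 0.0833%, for KLF10 0.874%, for KLF4 1.08% and for DUSP1 2.04%. Both SOCS3 probe sets, with 49.96% and 62.3% wider, and the second EGR1 probe set, with 61.3%, lay near the middle of their bins. Of the 34 probe sets with a range over 0.01, 4 were members, and of the 199 over 0.001 it was 7.

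**Figure D3:**
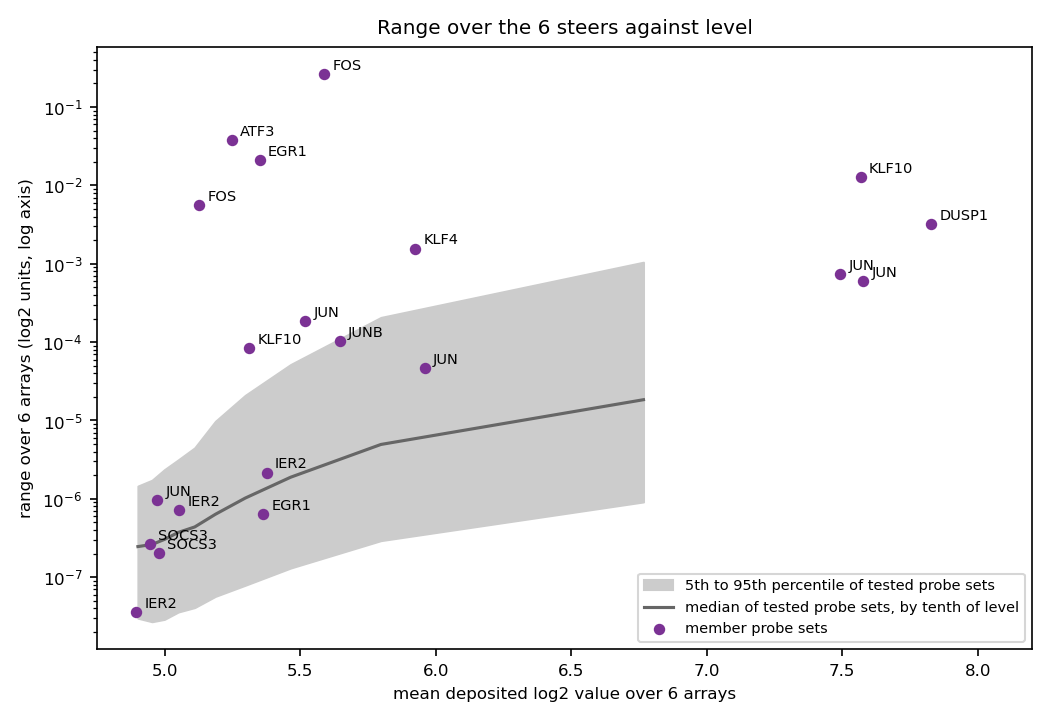
Range over the 6 steers (vertical, log axis) against mean deposited log2 value (horizontal) for the 20 member probe sets, each named. The line is the median and the band the central 90% of all tested probe sets in each of 10 bins of level. Both are drawn at the bins' median levels, from 4.9014 to 6.7666. Judged by their own bin, 9 probe sets lie above the band, those of FOS, ATF3 and EGR1 farthest from the line. Within it lie 11, which are those of SOCS3, IER2 and JUNB, 4 of the 5 of JUN and 1 of EGR1. Some probe sets of KLF10, DUSP1, JUN and IER2 lie beyond the drawn ends of the band.

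The comparison of restricted with supplemented steers asked whether vitamin A restriction changed these genes, and no member probe set passed. With limma and Benjamini-Hochberg adjustment over all tested, 0 of 20 were past 0.05, against 1 of 24016 or 0.00416% of all, and the adjusted p was 1 for each of the 20. At an unadjusted p under 0.05 there were 0 members, against 4.08% of all tested (1.91% higher and 2.17% lower in restricted steers), and the smallest p of limma among them was 0.0527. The restricted mean lay below the supplemented mean in 14 of 20 probe sets, against 51.7% of all tested, with a median difference of -0.292 SDs beside -0.0328 over all. Without supplemented steer 2 that count was 8. Of the 12 members in the widest 1000 it was 9, beside 410 of that 1000. The diets did not overlap in 2 of 20, the flat probe sets Bt.13134.1.A1_at of JUN and Bt.8137.1.S2_at of SOCS3, against 8.76% of all tested. Both were lower in restricted steers, as were 4.64% of all tested, and 0 members were higher without overlap, against 4.12%. Without restricted steer 2 the count was 5, and when array medians were made equal it was 0. The shares over all tested were not counted in these settings. With fewer steers the diets separate more readily, so 8.76% is no background for the count of 5.

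Variation within a diet made up most of the members' spread. The diet accounted for a median of 6.37% of the variation of the 20 probe sets and 11.3% of that of all tested. In the 12 members of the widest 1000 it was 3.09%, against 10% for that 1000. The SD was larger in restricted than in supplemented steers in 11 of 20 member probe sets and in 48.2% of all tested. In FOS it was 0.131 against 0.0782, in ATF3 0.0197 against 0.0111 and in DUSP1 1359 against 547 millionths, while KLF10 at Bt.9527.1.A1_at went the other way, with 3965 against 6277 millionths, and at Bt.9527.2.S1_at had 44.0 against 35.9 millionths. With 3 steers a diet these SDs were not tested against each other.

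**Figure D4:**
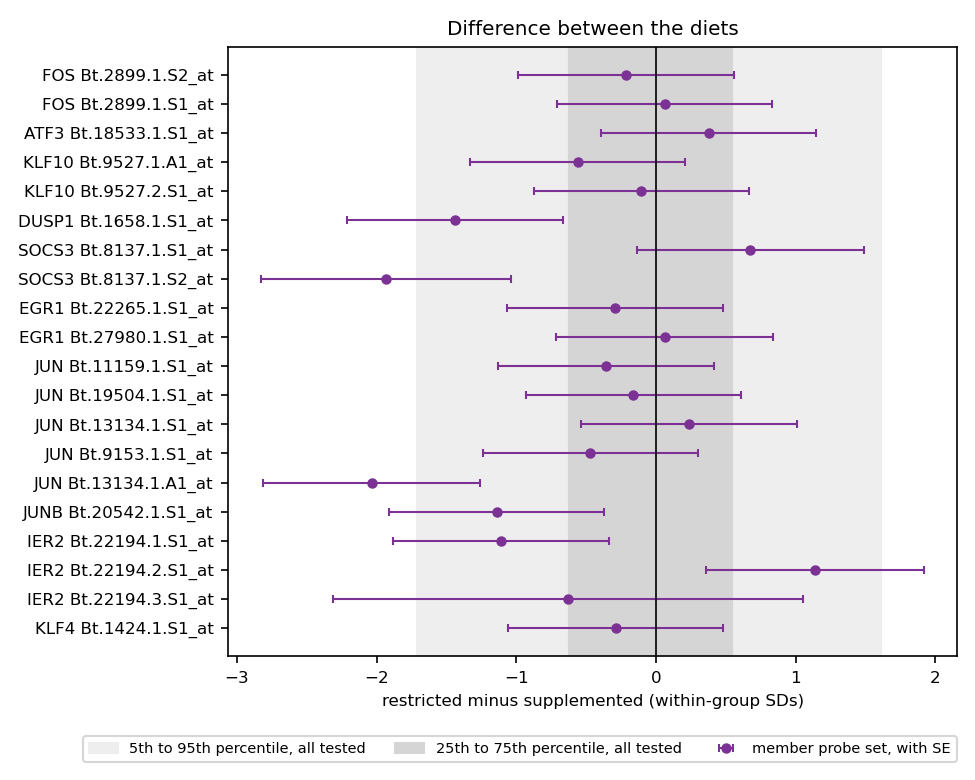
Restricted minus supplemented for each member probe set, in within-group SDs (horizontal), with its SE. The grey bands hold the central 50% and 90% of all tested probe sets, and only the JUN probe set at -2.04 SDs and the SOCS3 probe set at -1.93 SDs lie outside the wider band.

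Other immediate early transcription factors had 15 of 24 listed genes on the array, with 28 probe sets, 15 higher and 13 lower in restricted steers. With limma 0 passed the adjusted threshold and 2 had an unadjusted p under 0.05, against 4.08% of all tested. The median difference was 0.129 SDs. Ranked by p, the first were CEBPD, a factor induced in inflammation, at 4.97 SDs over a range of 0.360 millionths in 1 of its probe sets, and BHLHE40, a repressor tied to the circadian clock, at -2.55 SDs without overlap. Another CEBPD probe set, with a range of 1129 millionths, had 0.209 SDs and overlapping diets. The AP-1 members FOSL2 and FOSL1 followed at 1.47 and -1.37 SDs. The orphan receptors NR4A1 and NR4A2, also immediate early genes, were chosen after their values were seen, for their order of steers. NR4A2 was 5.03908, 5.03945 and 5.03877 in supplemented and 5.03870, 5.03960 and 5.03909 in restricted steers 1 to 3, which is the order of ATF3. NR4A1, with 13 pairs as in FOS, also had restricted steer 1 lowest. ATF4, a stress factor chosen the same way, had the order of ATF3 as well, over a range of 39.8 millionths. Being chosen for their order, NR4A1, NR4A2 and ATF4 are no support for a shared one. ID1, BHLHE40 and the wider CEBPD probe set had wider ranges than these, with 10, 10 and 8 pairs as in FOS. Their lowest steers were supplemented steer 3, restricted steer 3 and supplemented steer 1.

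Other signalling, feedback and secreted immediate early genes had 29 of 49 listed symbols on the array, with 50 probe sets, 23 higher and 27 lower. By limma 0 passed the adjusted threshold and 2 had an unadjusted p under 0.05, against 4.08% of all tested. The median was -0.0720 SDs. CCN2, a matricellular protein, had the smallest p of the list (-6.22 SDs, limma unadjusted p = 0.000783), and no restricted steer reached the lowest supplemented steer. NFKBIZ, ERRFI1 and THBS1 followed at 2.09, 1.41 and -1.29 SDs. In this list 12 of 50 probe sets had at least 12 pairs as in FOS, and in the list of transcription factors 5 of 28, against 7.52% of all tested. The widest of this list did not follow FOS. SGK1, at range ranks 14 and 30, had 5 pairs at each, and BTG1, at rank 70, had 4. TRIB1, at rank 133, had 12.

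The upstream kinases and factors that carry signals to these genes had 21 of 36 listed symbols measured, with 33 probe sets, 16 higher and 17 lower, and a median of -0.000383 SDs. By limma 0 passed the adjusted threshold and 1 had an unadjusted p under 0.05, against 4.08% of all tested. That was STAT3, the activator of SOCS3, at -3.30 SDs (limma unadjusted p = 0.0101), with no restricted steer as high as any supplemented steer, over a range of 17.0 millionths. IL6R, TGFBR1 and MAP2K1 followed at 1.504, -1.29 and 1.14 SDs. None of these 33 probe sets was in the widest 1000, and 4 had at least 12 pairs as in FOS, against 7.52% of all tested.

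The lists of glucocorticoid responsive and heat shock genes had median counts of pairs near that of all tested. Glucocorticoid responsive genes (10 of 14 genes, 17 probe sets, 10 higher and 7 lower, median 0.209 SDs) had a median of 7 pairs, and the mean over their probe sets was highest in restricted steer 3, at 0.669 SDs over the 6 arrays from each probe set's mean. DDIT4 of this list, an mTOR inhibitor with range rank 3, had exactly the order of KLF4, with restricted steer 1 lowest, and was chosen after its values were seen. PDK4, at range ranks 8, 9 and 25, had 10, 11 and 10 pairs as in FOS, with supplemented steer 1 lowest. SGK1, at ranks 14 and 30, had 5 at each, with restricted steer 3 lowest. CEBPD, at the same flat probe set as above, NR3C1, PDK4 and ZBTB16 had the smallest p values of the list, with differences of 4.97, -2.59, 1.12 and 1.11 SDs. Heat shock genes (15 of 18 genes, 29 probe sets, 22 higher and 7 lower, median 0.677 SDs) had a median of 8 pairs and were highest in restricted steer 2, at 0.878 SDs, the steer with the highest FOS. Their smallest p values were those of HSPE1, HSF1, HSPD1 and HSPH1, at 4.21, -2.45, 2.27 and 2.12 SDs. By limma 0 probe sets of these lists passed the adjusted threshold. At an unadjusted p under 0.05 there were 2 of 17 glucocorticoid and 5 of 29 heat shock probe sets, against 4.08% of all tested. Of all tested, 51.7% were lower in restricted steers. All tested probe sets had a median of 7 pairs.

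Cell type markers differed in how far their order of steers was like that of FOS, and their part in the result was not tested. Satellite cell markers, with 2 of 5 genes (MYOD1 and MYF5) and 3 probe sets, averaged (in SDs over the 6 arrays from each probe set's mean) 0.718, 0.892 and -0.949 in supplemented and -0.679, 0.573 and -0.555 in restricted steers 1 to 3. They were above their mean in supplemented steers 1 and 2 and restricted steer 2, the 3 steers highest in FOS, but lowest in supplemented steer 3, whereas FOS was lowest in restricted steer 1. Their ranges, 0.048 to 1.45 millionths, were below the spread of the array medians. Their median was 11 pairs and their mean level was 5.17 in every steer. Lymphocyte markers (7 of 8 genes) and Schwann cell and nerve markers (2 of 5) had a median of 9.5 pairs, macrophage markers (5 of 6) of 8, and endothelial (7 of 7), smooth muscle and pericyte (6 of 6) and red blood cell markers (5 of 5) of 7. Muscle fibre markers had a median of 6 pairs. Adipocyte markers (5 of 6) and fibroblast markers (6 of 6) had 5. Restricted steer 1, lowest in FOS, had the highest means of adipocyte and smooth muscle and pericyte markers, 1.08 and 1.15 SDs. By limma 0 probe sets of these 10 lists passed the adjusted threshold.

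Mean levels of the lists differed little between steers. Adipocyte markers lay from 5.965 to 5.970 in supplemented and from 5.967 to 5.971 in restricted steers, fibroblast markers from 6.417 to 6.427 and from 6.420 to 6.422, and smooth muscle and pericyte markers at 5.600 in all 6. The 3 prime minus 5 prime differences of 6 housekeeping controls, a measure of RNA integrity, put from 1 pair (GST) to 10 pairs (EF1A) of steers in the order of FOS, GST thus running opposite in 14 of 15. The GST difference ran only from -0.04122 to -0.04118 over the 6 steers, and that of EF1A from -0.2274 to -0.2038. Age ordered 7 of 15 pairs as in FOS. The array median, highest in restricted steer 1, ordered 5 as in FOS and 10 the opposite way. The parts of RNA integrity, age and array median were not tested.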

How the data were processed

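Per the labels' protocols, total RNA was extracted with Trizol, purified on RNeasy columns, and 100 ng was labelled with biotin for a 3 prime GeneChip array. The values of the 6 arrays, for 24128 probe sets, are those the authors deposited, read as log2 from their span. How background and normalization were handled is not given in the sources used here. Precision is limited by there being 3 arrays per diet. After 112 control probe sets were removed, 24016 remained, and their values were multiplied by 1e+09. The limma fit (version 3.58.1, R version 4.3.3, no trend in eBayes) was restricted minus supplemented, adjusted over all by Benjamini-Hochberg at 0.05. It was tested on simulated data with differences larger, in SDs, than those of the members. That test does not show whether differences of the members' size could be detected. Symbols came from a platform annotation table that gives 13318 probe sets 1 gene, 86 several and 10724 none; all 20 member probe sets matched ARS-UCD2.0 gene records by identifier. No build is named for the array, so no coordinates are given. Likeness to FOS is the number of the 15 pairs of steers ordered as in its widest probe set.

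Named were the 10 members, with all their probe sets, and up to 4 genes of each of 5 related lists by smallest p; 10 lists of cell type markers were also summed up. Members and lists were chosen with earlier results of these data known. Each array holds a different steer, so p-values measure the spread between steers. Alternatives were array shifts, quantile normalization, age, a block on the number, array weights, other variance priors, level filters, the linear scale and leaving out each steer.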

Additional observations from a re-analysis of the deposited data

How the results depend on the processing

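No member probe set passed the adjusted threshold under any of the 16 alternatives. Their smallest limma adjusted p was 0.473, with quantile normalization, and was shared by several probe sets with tied arrays. Over all tested probe sets the count of 1 became 0 with age as a covariate, 35 with quantile normalization, and 1 to 2 without single steers. The labels number steers 1 to 3 in both diets. Same-numbered steers deviated together by correlations of 0.0151 to 0.0374 over probe sets, too low to pair them. Each of the 6 nevertheless correlated best with its own number. With the replicate block the count over all tested was 0. Each block holds 1 steer of each diet, so it leaves the diet differences, and thus their directions, unchanged. The count of members whose restricted mean was lower, 14, ran from 8 to 17 without single steers. That of members without overlap, 2, ran from 2 to 5, though with fewer steers the diets separate more readily. Without overlap there were 0 when array medians were made equal, 0 with quantile normalization and 0 with either level filter, which drop those 2 probe sets.

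The counts of steer order under other scalings were added after the data were seen. Quantile normalization left 4 probe sets with restricted steer 1 lowest and 4 with at least 12 pairs as in FOS, against 1.4% and 0.0625% of all tested and 3.6% and 1.4% of the widest 1000; it makes 15456 probe sets equal on all arrays. Directions turned in these cases, in within-group SDs. Equal array medians gave -0.727 for SOCS3 Bt.8137.1.S1_at, -0.772 for EGR1 Bt.27980.1.S1_at and -0.717 for IER2 Bt.22194.2.S1_at. Quantile normalization gave 0.816 for JUN Bt.9153.1.S1_at and -0.816 for IER2 Bt.22194.2.S1_at. The same size, 0.816 or -0.816, came out for DUSP1, JUNB, JUN Bt.11159.1.S1_at, both SOCS3 probe sets, and IER2 Bt.22194.1.S1_at and Bt.22194.3.S1_at. It is the value given when all arrays but 1 are tied, so these 0.816 turns are not read as diet differences. Age as a covariate gave -0.0361 for FOS Bt.2899.1.S1_at, 0.367 for KLF10 Bt.9527.2.S1_at, -0.228 for EGR1 Bt.27980.1.S1_at, -0.118 for JUN Bt.13134.1.S1_at and 0.257 for KLF4. Array weights gave -0.0419 for FOS Bt.2899.1.S1_at. The cause of the other turns was not tested. Without single steers the values ran from -0.937 to 0.601 and -0.723 to 0.784 for FOS Bt.2899.1.S2_at and S1_at, -0.527 to 0.915 for ATF3, -1.56 to 0.122 and -0.541 to 0.966 for EGR1 Bt.22265.1.S1_at and Bt.27980.1.S1_at, -1.17 to 0.0796, -0.445 to 0.740, -1.17 to 0.343 and -1.04 to 0.263 for JUN Bt.11159.1.S1_at, Bt.13134.1.S1_at, Bt.19504.1.S1_at and Bt.9153.1.S1_at, -1.55 to 0.0207 and -1.01 to 0.329 for KLF10 Bt.9527.1.A1_at and Bt.9527.2.S1_at, and -0.664 to 0.618 for KLF4.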
